A study of Mus musculus with 15 samples.

Results

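Hypoxic gliomas switch on a recognisable set of genes, and 3 of them, Adm, Vegfa and Ankrd37, were used here to rank tumours. Of the 15 mouse brain tumour libraries of the series, the 5 with the highest and the 5 with the lowest level of these 3 genes were compared across all other genes, 10 of 15 libraries in all. The 10 libraries were therefore chosen on measured values and not on their labels. Each library's score was the mean of log2(CPM + 1) over the 3 genes, where CPM is the usual counts-per-million scale, relative to all reads the library has in genes. The score and its 3 genes are given as a description, with no test.

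The series examined how the histone mutant H3.3G34R and loss of Atrx alter gene expression in tumours raised in the frontal cortex. All mice were C57BL/6 animals of the Nestin Tv-a line with floxed p53 (p53 fl/fl), and 8 of the 15 libraries came from mice that also carried floxed Atrx (ATRX fl/fl). Avian DF-1 cells carrying RCAS-Cre, RCAS-PDGFA and a histone vector were injected into the cortex, so every group, controls included, received Cre and PDGFA. The histone vector was RCAS-H3.3G34R-GFP in 7 libraries and its wild-type counterpart RCAS-H3.3WT-GFP in 8. Such vectors enter only cells that carry the Tv-a receptor, here driven by the Nestin promoter of neural progenitors. Tumours were taken when the mice reached a functional end point, and no age or time after injection is used here. The 4 groups are called ATRXfl_G34R (Atrx floxed, H3.3G34R, 4 libraries), ATRXfl_WT (Atrx floxed, H3.3WT, 4), p53_G34R (Atrx intact, H3.3G34R, 3) and p53_WT (Atrx intact, H3.3WT, 4), and a number after the name marks the library. RNeasy-extracted RNA went into TruSeq mRNA libraries. No label says whether libraries of a group came from separate mice, so every p-value below measures only the spread between these libraries.

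Cells sense oxygen through the hypoxia-inducible factors (HIF). With oxygen present, prolyl hydroxylases of the EGLN family mark HIF alpha subunits, and the VHL protein sends them for degradation; without it, HIF alpha pairs with ARNT and binds DNA at a short core, ACGTG or GCGTG. Known targets include Vegfa, which encodes the main growth factor of blood vessels, Adm, which encodes the vasoactive peptide adrenomedullin, Ankrd37, which encodes an ankyrin-repeat protein, and most enzymes of glycolysis. In human gliomas these genes are known to be highest in the cells that border necrosis.

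The score ran from 7.43 in p53_G34R 1 to 3.78 in p53_WT 1. The 5 high libraries were p53_G34R 1 (7.43), ATRXfl_G34R 4 (6.66), ATRXfl_WT 3 (6.59), ATRXfl_WT 4 (6.55) and ATRXfl_G34R 1 (6.48), with a mean of 6.74 ± 0.39 (SD, n = 5). The 5 low libraries were p53_WT 4 (5.41), ATRXfl_G34R 3 (4.91), ATRXfl_WT 1 (4.62), p53_WT 3 (3.99) and p53_WT 1 (3.78), with a mean of 4.54 ± 0.67 (SD, n = 5). Wherever 5 values follow a gene below, they stand in this order. The first library outside the high set scored 6.36 and the first outside the low set 5.96, so the upper border separated libraries that lay close together (6.48 and 6.36) and the lower border fell in a wider gap (5.96 and 5.41).

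**Figure D1:**
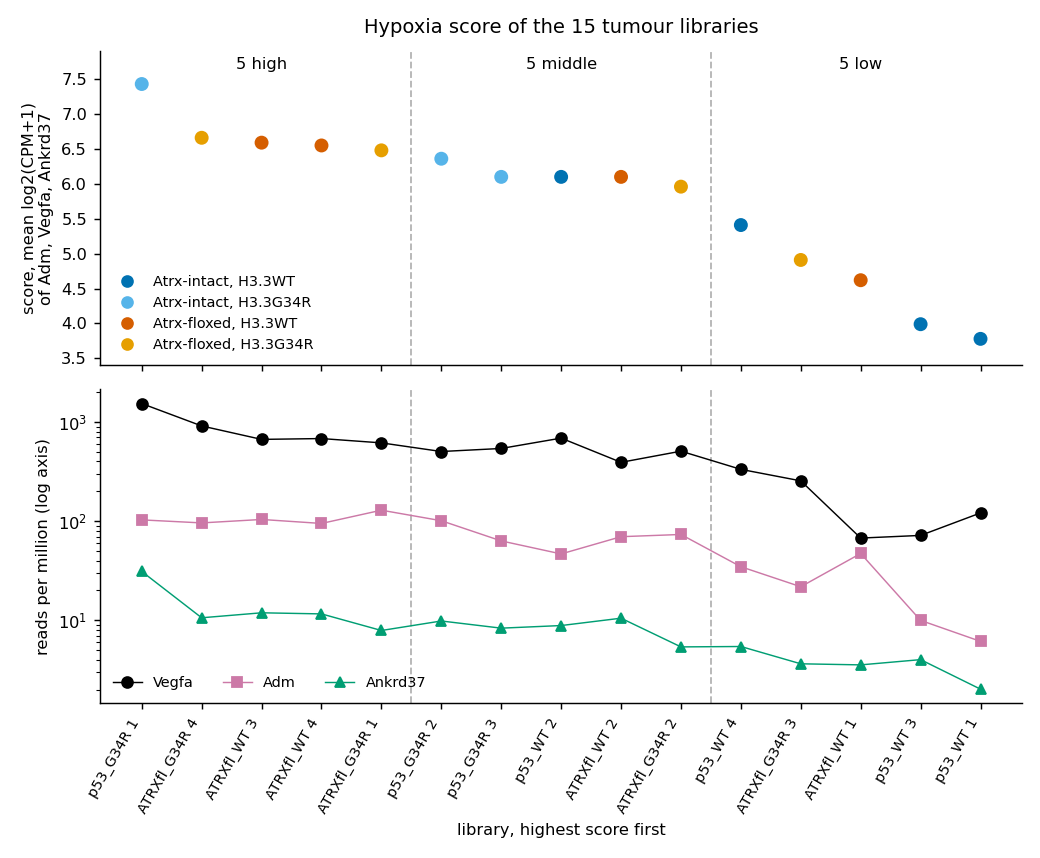
Hypoxia score (upper panel, mean log2(CPM + 1) of Adm, Vegfa and Ankrd37) and CPM of the 3 genes (lower panel, log axis) in the 15 libraries, highest score first, with dashed lines at the borders of the 5 high, 5 middle and 5 low libraries. The score drops in small steps from 6.66 to 5.96 and faster below, to 3.78, while p53_G34R 1 stands alone at 7.43.

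Vegfa reached 1536, 913, 668, 681 and 616 CPM in the high libraries and 333, 255, 67.5, 71.8 and 121 in the low ones. Adm reached 103, 96.0, 104, 94.8 and 129 CPM against 34.7, 21.8, 47.2, 9.98 and 6.13. Ankrd37 reached 31.1, 10.6, 11.9, 11.6 and 7.89 CPM against 5.44, 3.64, 3.55, 4.01 and 2.02. Each of the 3 genes was above every low library in every high library, but they did not rank the libraries alike: ATRXfl_WT 1 had the lowest Vegfa of the series and the highest Adm of the low set. Ranking by Vegfa and Ankrd37 alone exchanged 1 of the 5 high libraries for p53_WT 2, and kept all 5 low ones. Ranking without Vegfa or without Ankrd37 kept both sets whole.

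The high set held 2 ATRXfl_G34R, 2 ATRXfl_WT and 1 p53_G34R library and none of p53_WT. The low set held 3 p53_WT, 1 ATRXfl_G34R and 1 ATRXfl_WT library and none of p53_G34R. By genotype, 4 of 5 high and 2 of 5 low libraries were Atrx-floxed, and by histone 3 of 5 high and 1 of 5 low carried H3.3G34R. The score averaged 6.63 ± 0.70 (SD, n = 3) in p53_G34R, 6.00 ± 0.79 (SD, n = 4) in ATRXfl_G34R, 5.97 ± 0.92 (SD, n = 4) in ATRXfl_WT and 4.82 ± 1.12 (SD, n = 4) in p53_WT. The ranges of the groups overlapped, since p53_WT reached 6.10 and the floxed groups reached down to 4.91 and 4.62. Since p53_WT was present only in the low set and p53_G34R only in the high set, a gene that differs between these groups cannot be told apart from one that goes with the score in the comparison of the sets. A second fit, over all 15 libraries with the 4 groups as a covariate, used the slope of each gene on the score within groups.

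High libraries held 22807315 to 29976738 reads in genes and low ones 25297663 to 35679129. Levels are not divided by gene length, so they are compared only between libraries and not between genes. In these 10 libraries Atrx lay between 48.9 and 115 CPM in floxed and between 169 and 311 CPM in intact tumours. In the low set, 2 libraries were rich in mature cortex RNA: Snap25, a synaptic gene, reached 1246 CPM in p53_WT 3 and 127 in ATRXfl_G34R 3, against at most 36.6 in the high set, and Mobp, a myelin gene, reached 572 and 514 CPM against at most 142. Another low library, ATRXfl_WT 1, was rich in vessel RNA, with Pecam1, an endothelial adhesion gene, at 437 CPM against 38.1 to 104 in the other low and 43.3 to 114 in the high libraries. Counts and medians of the lists are therefore also given for the 5 high against the 2 remaining low libraries, p53_WT 4 and p53_WT 1. Both belong to p53_WT, a group with no library in the high set. This contrast therefore cannot be told apart from a difference between study groups. Xist, which only female cells transcribe, was at 800 and 1127 CPM in 2 high and at 552 to 1320 CPM in 4 low libraries, and at 1.01 CPM or less in the others. In bulk tissue, fewer cells of a type and less RNA of a gene per cell cannot be told apart. The labels give ATRXfl_G34R 1 and ATRXfl_G34R 4, both high, a code in common, and likewise p53_WT 3 and p53_WT 4, both low, and do not say what it stands for. The middle libraries p53_G34R 2 and p53_G34R 3, used in the slope, also share a code. Xist was at 0.262 CPM in p53_G34R 2 and at 1588 in p53_G34R 3, so these were not libraries of 1 mouse. In the other pairs Xist was alike, low in both or high in both. The titles also carry a second number, which differs between libraries that share a code. The main fits counted libraries with a shared code separately, and summing them was an alternative for the sets only.

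Set against each other, the high and low libraries lay several-fold apart in single HIF target genes and barrier transporters. Egln3 was 2.29 log2 units higher in the high set, Slc16a3 2.48 and Ldha 1.66, while transporters of the blood-brain barrier such as Slco1a4 (-2.12) and Slc22a8 (-2.27) lay on the other side. None of these differences passed the test over all genes. By limma on log2(CPM + 1), 0 of 15397 genes (0.0%) were called higher and 0 (0.0%) lower, and the smallest Benjamini-Hochberg adjusted p was 0.751. The same fit placed 415 genes higher (2.7%) and 420 lower (2.73%) at an unadjusted p under 0.05. The quasi-likelihood test of edgeR and limma-voom also called none, whereas DESeq2 called 34 genes higher (0.221%) and 103 lower (0.669%). A simpler count is that of genes for which every high library lay above every low one, 89 of 15397 (0.578%), or below, 62 (0.403%). The difference was positive for 7950 genes (51.6%), and its median over all genes was 0.01. Against the 2 remaining low libraries it was positive for 49.5% of the genes, and 806 genes were entirely higher and 875 entirely lower, which fewer libraries make easier to reach. Over the 15 libraries, the slope within groups was positive for 50.9% of the genes.

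**Figure D2:**
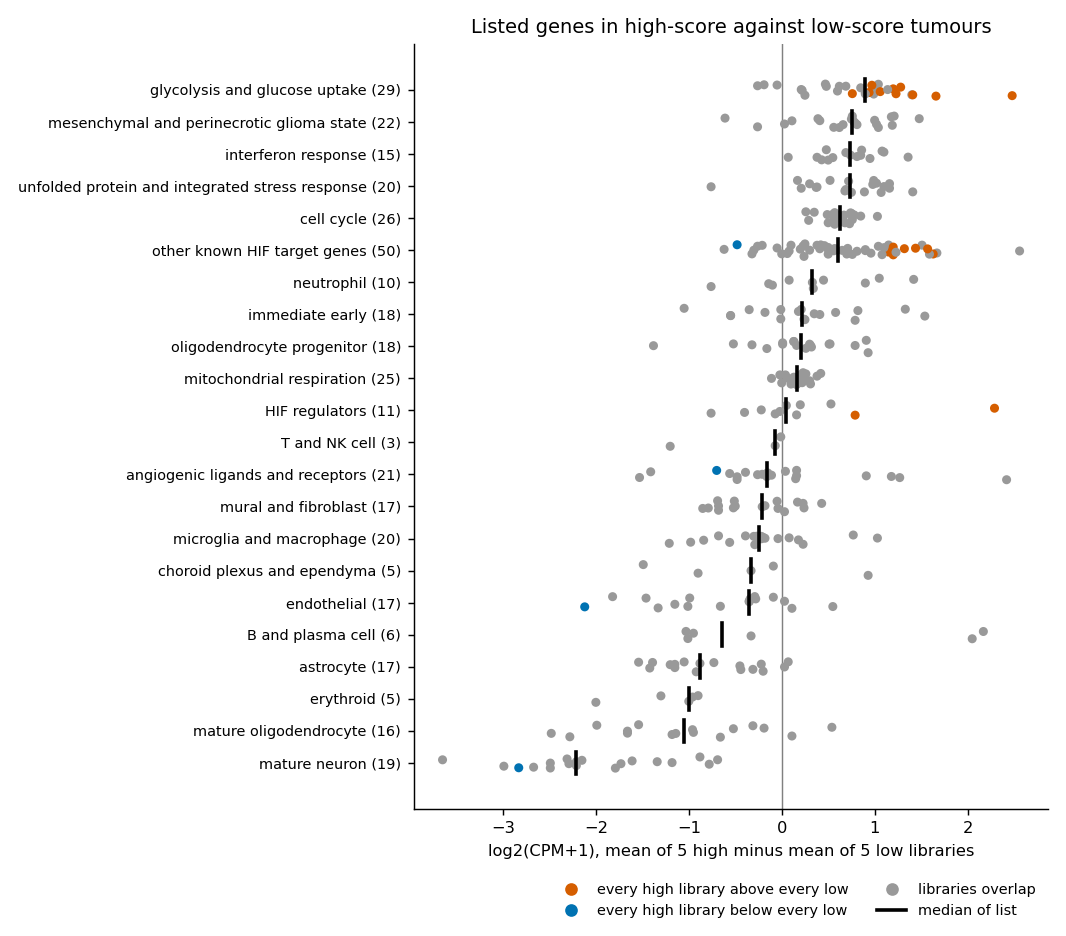
Difference in mean log2(CPM + 1) between the 5 high and 5 low libraries (horizontal axis) for each tested gene of 22 gene lists (rows, number of genes in brackets), with the median of each list as a black bar and coloured points for genes whose high and low libraries do not overlap. Glycolysis has the highest median, 0.90, with 10 genes entirely higher, and mature neuron genes the lowest, -2.21.

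Of the 89 genes entirely higher in the high set, 19 stood in the 3 lists of HIF regulators, glycolysis and other HIF targets. That is 21.3% of the 89 and 21.6% of the 88 listed genes tested, whereas 0.578% of all genes tested were entirely higher. The 19 are named next. They were Ak4, Bhlhe40, Egln1, Egln3, Eno1, Ero1l, Fam162a, Gapdh, Gbe1, Gpi1, Jmjd6, Ldha, P4ha1, Pfkl, Pgam1, Pgk1, Pgm1, Plod2 and Slc16a3. Of the 62 genes entirely lower, 1 was listed (1.61% of the 62 and 1.14% of the listed), namely Tfrc, the transferrin receptor. Among the 34 genes that DESeq2 called higher, 10 were listed (29.4% of the 34 and 11.4% of the listed), and among the 103 it called lower none was.

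Among the regulators of the pathway, 2 oxygen sensors were entirely higher in the high set and the genes of the factors themselves overlapped between the sets. Egln3, a prolyl hydroxylase that is itself a HIF target, reached 169, 59.6, 45.5, 56.4 and 43.0 CPM in the high libraries and 25.3, 14.4, 10, 14.4 and 5.38 in the low ones. Every high library lay above every low one, with means of 74.7 ± 53.2 and 13.9 ± 7.4 CPM (SD, n = 5 each) and a difference of 2.29 on the log2 scale (SE 0.44). Without p53_G34R 1, by far the highest, the difference was 1.94. Egln1, the sensor that acts in most tissues, reached 420, 168, 224, 195 and 185 CPM against 166, 144, 109, 102 and 138, also with no overlap, though the gap between the sets was only that from 168 to 166 CPM.

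Hif1a, which encodes the HIF-1 alpha subunit that is controlled mainly as a protein, reached 107, 101, 109, 76.5 and 124 CPM in the high and 111, 122, 98.1, 82.5 and 57.9 in the low libraries. The sets overlapped almost fully, with a difference of 0.16 (SE 0.22). Epas1, the HIF-2 alpha gene that endothelial cells also express, reached 108, 95.2, 425, 320 and 619 CPM against 259, 260, 739, 269 and 925, so the values were scattered in both sets. Vhl lay between 55.7 and 92.0 CPM in all 10 libraries. Of the 11 regulators, 6 had a positive difference, and the median was 0.05. With the cortex-rich libraries left out before ranking 5 were positive with a median of -0.01, and against the 2 remaining low libraries 8 were.

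Genes of glycolysis and glucose uptake were higher in the high set, 26 of 29 with a positive difference and 17 at an unadjusted p under 0.05, none in the other direction. Their median was 0.90, and in 10 of the 29 every high library lay above every low one, as in 0.578% of all genes tested. Ldha, which encodes the subunit that turns pyruvate into lactate, reached 1799, 1006, 560, 590 and 598 CPM against 419, 285, 209, 248 and 183. The sets did not overlap, and the means were 911 ± 530 and 269 ± 92.3 CPM (SD, n = 5 each), a difference of 1.66 (SE 0.36). Slc16a3, which encodes the lactate exporter MCT4, reached 343, 137, 63.8, 80.0 and 75.6 CPM against 34, 43.5, 23.5, 18.4 and 3.79 (difference 2.48, SE 0.63). Here too all high libraries lay above all low ones, and p53_WT 1, with the lowest score, had the lowest value.

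Eno1, the enolase of glycolysis, reached 897, 555, 318, 347 and 295 CPM in the high libraries and 177, 170, 146, 159 and 171 in the low ones (difference 1.41, SE 0.29). The low libraries were nearly level, including the cortex-rich and vessel-rich ones, and the high libraries fanned out above them. Gpi1, the isomerase at the second step of the pathway, reached 1436, 870, 578, 650 and 551 CPM against 340, 418, 335, 368 and 230 (1.20, SE 0.29). Pgm1, which joins glycogen to glycolysis, lay between 112 and 248 CPM in the high and between 57.5 and 85.9 in the low set (0.97, SE 0.24), and Gbe1, the glycogen branching enzyme, between 21.1 and 98.6 against 14.0 and 16.6 (1.06, SE 0.37). Gapdh, Pgk1 and Pgam1 also did not overlap, but their counts were only 8.06 to 28.9, 5.61 to 66.8 and 3.44 to 23.9 CPM. These genes have many near-identical processed copies that reads may be shared with, so their levels are uncertain.

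Not every gene of the list followed. Slc2a1, the glucose transporter that tumour and barrier endothelial cells share, reached 503, 192, 174, 129 and 224 CPM against 111, 124, 344, 264 and 73.9. The sets overlapped, as ATRXfl_WT 1 and p53_WT 3, the low libraries with the most endothelial reads, exceeded 4 of the 5 high libraries (difference 0.47, SE 0.47). Pfkfb4, Pfkm and Aldoc had differences of -0.26, -0.19 and -0.05. The summed level of the list was 13071, 8747, 5843, 6195 and 6373 CPM in the high libraries and 4088, 4820, 3578, 7735 and 2873 in the low ones, where p53_WT 3, the richest in neuron RNA, overlapped with the high set. The list's median was 0.69 without p53_G34R 1, 0.80 with the 2 cortex-rich libraries left out before ranking, and 1.07, with 29 of 29 positive, against the 2 remaining low libraries.

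Of the other known HIF targets, 43 of the 50 tested had a positive difference, with a median of 0.61. At an unadjusted p under 0.05, 19 were higher and 1, Tfrc, was lower. Entirely higher in the high set were 7 of the 50, against 0.578% of all genes tested. P4ha1, a subunit of the collagen prolyl hydroxylase of the endoplasmic reticulum, reached 445, 288, 167, 254 and 170 CPM against 107, 128, 84.3, 72.7 and 110 (difference 1.32, SE 0.28). Ero1l, which drives disulphide bond formation in the same compartment, reached 243, 81.5, 65.5, 77.6 and 73.2 CPM against 42.7, 35.4, 25.2, 28 and 21.6 (1.63, SE 0.35). Neither gene's sets overlapped, and for Ero1l 4 of the 5 high libraries lay close together while p53_G34R 1 was far above them.

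Ak4, a mitochondrial adenylate kinase, reached 125, 75.7, 43.1, 46.9 and 37.4 CPM against 31.1, 25.4, 16.7, 18.1 and 10.9 (1.57, SE 0.37). Fam162a, a mitochondrial protein gene, reached 201, 98.2, 59.3, 55.2 and 37.1 CPM against 27.9, 27.8, 33.2, 22.7 and 24.9 (1.44, SE 0.38). Jmjd6, a JmjC-domain oxygenase, reached 190, 213, 107, 112 and 100 CPM against 97.3, 65.9, 74.7, 31 and 58.9 (1.15, SE 0.32). All 3 were separated between the sets, Jmjd6 narrowly, with 100 CPM in the lowest high library and 97.3 in the highest low one. Plod2, which hydroxylates lysines of collagen, was separated as narrowly, 50.6 to 218 against 12.1 to 49.8 CPM.

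Car9, the carbonic anhydrase used as a marker of hypoxia in sections, depended on 1 library. It reached 232 CPM in p53_G34R 1 and 9.51, 6.14, 6.37 and 4.55 in the other high libraries, against 4.93, 1.31, 0.922, 1.88 and 0.316 in the low ones. The sets overlapped slightly, at 4.55 and 4.93 CPM, and the middle libraries ranged from 1.99 to 12.9. The difference was 2.56 (SE 0.94) with that library and 1.57 without it. Among the listed targets with little difference were Bnip3l (0.10), Ndufa4l2 (0.00), Edn1 (0.08) and Stc1 (0.20). Tfrc lay between 32.9 and 46.2 CPM in the high and between 47.8 and 63.1 in the low set (-0.48, SE 0.16). Without p53_G34R 1 the median of the 50 targets was 0.41, with the cortex-rich libraries left out before ranking 0.48, and with study group as a covariate 0.20, the lowest of the 31 alternatives, in each of which it kept its sign. Against the 2 remaining low libraries 45 of 50 were positive, with a median of 0.76.

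Fitted over all 15 libraries with the study group as a covariate, 3 genes rose with the score (0.0195% of 15397) and 2 fell (0.013%), by limma at a Benjamini-Hochberg adjusted p under 0.05. At an unadjusted p under 0.05, 1406 genes had a positive slope (9.13%) and 1185 a negative one (7.7%). The 3 that rose were Egln3, Ldha and Tnc, and the 2 that fell were Apcdd1 and Slc22a8. Slopes are in log2(CPM + 1) units per unit of score within a group.

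**Figure D3:**
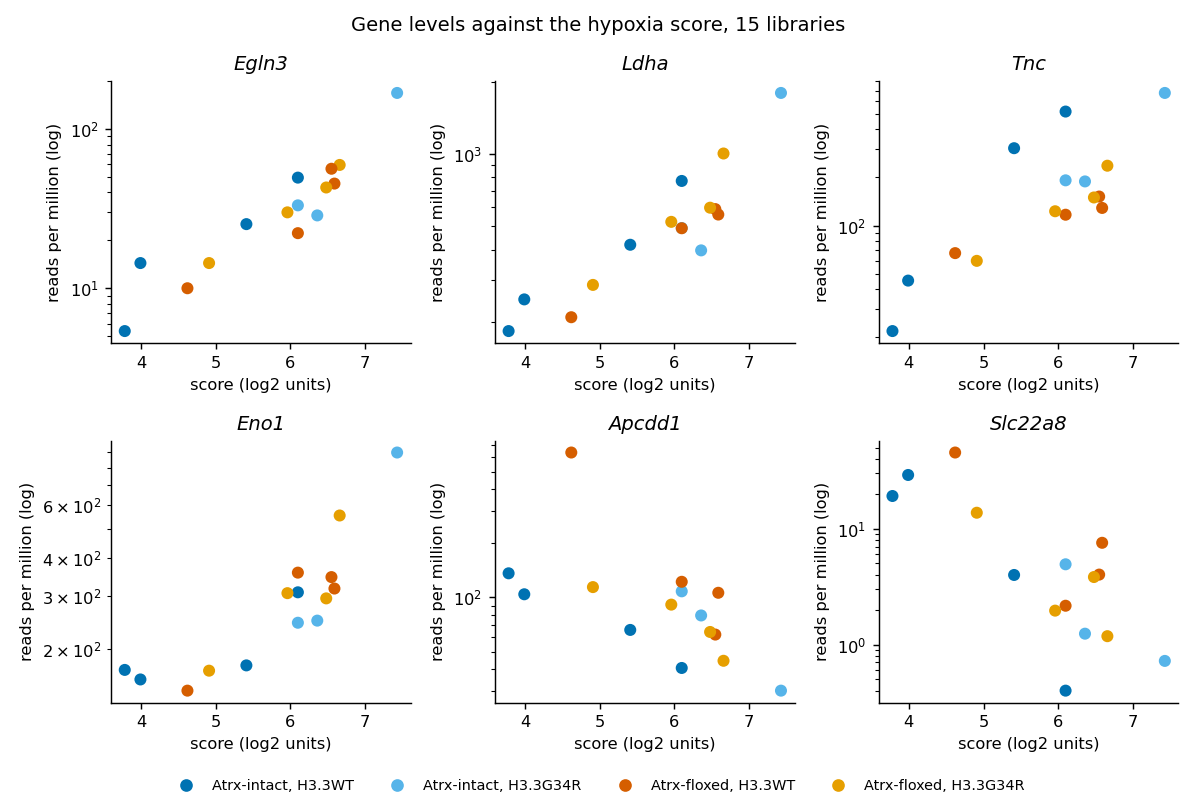
CPM (log axis) against the hypoxia score for 6 genes in the 15 libraries, coloured by study group: the 5 genes whose slope on the score within groups passed limma's test, and Eno1, which did not (adjusted p = 0.116). Egln3, Ldha, Tnc and Eno1 climb with the score and Apcdd1 and Slc22a8 descend, with p53_G34R 1 at the right end of each panel.

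Egln3 (ENSMUSG00000035105, chr12:54178981-54203860 of mm10) rose by 1.17 on the log2 scale per unit of score (SE 0.14, limma adjusted p = 0.0176). Its middle libraries, which the comparison of the sets had not used, lay at 28.7, 33.2, 49.6, 22.2 and 30 CPM. All of them but ATRXfl_WT 2 (22.2) exceeded the low libraries' maximum of 25.3 CPM. Ldha (ENSMUSG00000063229, chr7:46841475-46855627) rose by 0.89 (SE 0.12, limma adjusted p = 0.0258), with 397, 492, 773, 491 and 522 CPM in the middle libraries. All but 1 of these lay above the low libraries' maximum of 419 CPM.

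Tnc (ENSMUSG00000028364, chr4:63959785-64047015), which encodes tenascin C, a matrix glycoprotein of gliomas and scars, rose by 1.29 (SE 0.18, limma adjusted p = 0.0334). It reached 676, 237, 129, 152 and 150 CPM in the high libraries and 305, 60.2, 67.3, 45.3 and 21.9 in the low ones. The sets overlapped because p53_WT 4 had 305 CPM, and within p53_WT the order of Tnc followed that of the score.

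Apcdd1 (ENSMUSG00000071847, chr18:62922231-62961179), a membrane inhibitor of Wnt signalling, fell by 0.98 (SE 0.14, limma adjusted p = 0.0334). It reached 30.3, 44.4, 106, 62.1 and 64.2 CPM in the high and 65.9, 114, 638, 104 and 136 in the low libraries, highest in the vessel-rich ATRXfl_WT 1. Slc22a8 (ENSMUSG00000063796, chr19:8591254-8611835), an organic anion transporter of the brain's barriers, fell by 1.53 (SE 0.23, limma adjusted p = 0.0435). It reached 0.722, 1.18, 7.54, 4.01 and 3.82 CPM against 3.98, 13.7, 45.3, 29.0 and 19.1, overlapping only through p53_WT 4.

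All 5 slopes kept their sign in each of 20 alternatives, but the calls depended on single libraries. Leaving out ATRXfl_G34R 4, ATRXfl_WT 4 or p53_G34R 3 each left no gene called. The call of Egln3 was also lost without ATRXfl_WT 1 or p53_WT 2, and held in 10 of 15 such fits, with slopes from 1.07 to 1.26. The call of Ldha was also lost without ATRXfl_G34R 2, ATRXfl_G34R 3, ATRXfl_WT 1 or p53_WT 2 (8 of 15 fits, 0.80 to 0.93). Tnc was called in 4 of 15 fits, those without ATRXfl_G34R 1, ATRXfl_WT 1, ATRXfl_WT 3 or p53_WT 1. Apcdd1 was called in 3, without ATRXfl_G34R 1, p53_WT 1 or p53_WT 3, and Slc22a8 in 3, without ATRXfl_G34R 1, ATRXfl_WT 2 or ATRXfl_WT 3. Without the 2 cortex-rich libraries Egln3 and Tpi1 rose and Apcdd1 and Plxdc2 fell, and without the vessel-rich library as well 4 genes rose (Tnc, Egln3, Glis3 and Tpi1) and none fell. Without the group covariate 20 genes rose, among them Slc16a3, Gpi1, Ak4, Eno1, Jmjd6 and Ero1l of the HIF lists, and 2 fell, Slc22a8 and Car4.

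The 250 bases before the start of 6 of these genes are shown because HIF binds close to the start of many of its targets: the called genes Egln3 and Ldha, 3 of the genes entirely higher in the high set, and Slc22a8 for the opposite direction. The starts are RefSeq's, and for Ldha, Slc22a8 and Slc16a3 they lie 4329, 1928 and 587 bases from that of the gene in GENCODE, so the windows of Ldha and Slc22a8 fall inside the GENCODE gene span given above. The letters are RefSeq sequences of the GRCm38.p6 build, 5′ to 3′ on the gene's strand, with each ACGTG or GCGTG, on either strand (CACGT and CACGC on the shown strand), in capitals. The windows are Egln3 chr12:54203875-54204124 (minus strand), Ldha chr7:46845554-46845803 (plus), P4ha1 chr10:59323046-59323295 (plus), Eno1 chr4:150236458-150236707 (plus), Slc16a3 chr11:120948817-120949066 (plus) and Slc22a8 chr19:8592932-8593181 (plus).
Egln3: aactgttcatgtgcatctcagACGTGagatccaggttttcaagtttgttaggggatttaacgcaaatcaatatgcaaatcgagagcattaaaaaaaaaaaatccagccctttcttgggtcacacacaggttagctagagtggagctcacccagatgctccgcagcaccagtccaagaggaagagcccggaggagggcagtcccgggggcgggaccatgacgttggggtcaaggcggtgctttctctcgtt
Ldha: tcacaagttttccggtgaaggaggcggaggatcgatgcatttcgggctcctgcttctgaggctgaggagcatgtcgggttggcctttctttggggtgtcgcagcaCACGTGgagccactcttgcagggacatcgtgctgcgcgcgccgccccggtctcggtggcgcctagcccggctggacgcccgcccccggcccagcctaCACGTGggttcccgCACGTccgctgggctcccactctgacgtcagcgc
P4ha1: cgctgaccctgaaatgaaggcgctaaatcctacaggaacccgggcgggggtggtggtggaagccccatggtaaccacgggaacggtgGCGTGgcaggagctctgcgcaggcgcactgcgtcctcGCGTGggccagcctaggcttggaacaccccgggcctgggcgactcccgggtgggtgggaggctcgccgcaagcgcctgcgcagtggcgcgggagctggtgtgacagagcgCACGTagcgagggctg
Eno1: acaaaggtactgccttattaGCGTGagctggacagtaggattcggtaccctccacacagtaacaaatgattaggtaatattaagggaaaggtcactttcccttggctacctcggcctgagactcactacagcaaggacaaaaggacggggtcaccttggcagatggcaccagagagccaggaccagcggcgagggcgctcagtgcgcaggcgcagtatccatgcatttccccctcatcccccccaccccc
Slc16a3: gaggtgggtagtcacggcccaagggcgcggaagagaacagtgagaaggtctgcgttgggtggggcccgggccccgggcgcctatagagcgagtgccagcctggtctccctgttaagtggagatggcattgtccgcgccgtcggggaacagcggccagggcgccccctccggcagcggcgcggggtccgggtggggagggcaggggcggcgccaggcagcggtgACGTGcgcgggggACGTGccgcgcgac
Slc22a8: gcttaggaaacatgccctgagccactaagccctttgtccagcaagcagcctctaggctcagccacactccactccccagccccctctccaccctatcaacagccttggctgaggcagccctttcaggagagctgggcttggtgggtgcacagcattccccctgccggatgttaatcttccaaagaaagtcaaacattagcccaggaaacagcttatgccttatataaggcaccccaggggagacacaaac

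The Egln3 window held 1 such run, that of Ldha 3, of which 2 were the palindrome CACGTG that other factors also bind, that of P4ha1 3, that of Eno1 1 and that of Slc16a3 2, while that of Slc22a8 held none. These 6 do not stand for all named genes. The windows of Tnc, also called, of Vegfa, and of the entirely higher Gpi1, Muc2, Sdk2 and Spaca1 held none. Those of Arrdc3, Prss35, Ak4, Pgm1, Fam162a, Jmjd6 and Egln1, entirely higher, held at least 1. Among genes entirely lower, Cped1, Vwa5b2 and Dok7 held 1 each, and Abca9, Slco1a4, Car4, Hmcn1, Vegfc and Nrgn none. ACGTG occurred in 17.3% of the 20578 windows of all genes and in 21.3% of the 11464 windows of genes tested, and either core in 42.1% and 55.6%. ACGTG occurred in 22 of the 69 windows of genes entirely higher in the high set (31.9%) and in 10 of 49 of those entirely lower (20.4%). Either core occurred in 65.2% and 61.2% of these windows. Among the lists ACGTG alone occurred in 12 of 27 glycolysis windows (44.4%) and 16 of 35 windows of other HIF targets (45.7%), against 1 of 10 for endothelial genes, 42.9% of immediate early and 26.3% of stress response windows. Either core occurred in 70.4% of the glycolysis, 82.9% of the other HIF target, 20.0% of the endothelial, 78.6% of the immediate early and 68.4% of the stress response windows. A match of these letters is a description of the sequence and was not tested as a binding site.

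Whether ligands and receptors of vessel growth followed Vegfa and Adm depended on 1 low library. Of 21 tested, 8 had a positive difference between the full sets, the median was -0.16, and none was higher at an unadjusted p under 0.05. Without the vessel-rich ATRXfl_WT 1, 13 of 21 were positive with a median of 0.13. In that fit 5 were higher at an unadjusted limma p under 0.05, as were 465 of all 15397 genes. Against the 2 remaining low libraries 14 of 21 were positive (0.32). Vegfc, a ligand of the lymphatic receptor, lay between 1.48 and 3.49 CPM in the high and between 3.64 and 8.51 in the low set, with no overlap (-0.70, SE 0.27). Tek, the receptor of the angiopoietins, lay between 2.29 and 9.24 against 3.51 and 47.8 CPM (-1.53, SE 0.60). Kdr, the main receptor of Vegfa on endothelial cells, reached 47.9, 75.5, 80.5, 42.2 and 51.3 CPM against 62.3, 67.2, 396, 46.5 and 43.0. Apart from ATRXfl_WT 1, Kdr spanned the same range in both sets (-0.48, SE 0.54). Esm1, Pgf and Angpt2, which tip cells or tumour vessels make, had positive differences with wide spread (2.42, 1.27 and 1.18, SE 1.23, 0.67 and 0.89).

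Endothelial genes had negative slopes on the score within groups, 17 of 17 with a median of -0.51 and 8 at an unadjusted p under 0.05, and none passed the adjusted test. Without the vessel-rich ATRXfl_WT 1, 13 of 17 were negative with a median slope of -0.17. Of these, 5 were at an unadjusted limma p under 0.05, as were the negative slopes of 1363 of all 15359 genes. Pecam1 went from -0.50 to -0.09. Between the sets, 14 of the 17 were negative, with a median of -0.35, but that median was 0.13 without ATRXfl_WT 1 and 0.20, with 11 of 17 positive, against the 2 remaining low libraries. Among them were transporters of the blood-brain barrier. Slco1a4, an organic anion transporter, reached 2.43, 4.95, 3.70, 10.3 and 3.86 CPM against 12.8, 20.4, 27.9, 55.5 and 15.9 (-2.12, SE 0.42), with no overlap. Its difference was -2.06 without ATRXfl_WT 1 and -1.81 without the cortex-rich p53_WT 3, and the smallest of 31 alternatives was -1.29. Abcb1a, the drug efflux pump of the barrier, reached 2.7, 6.66, 11.2, 5.44 and 6.18 CPM against 8.35, 15, 62.8, 59.3 and 14.5 (-1.82, SE 0.56), where only p53_WT 4 lay within the high range. Its difference was -1.48 without ATRXfl_WT 1 and -1.5 without p53_WT 3, and the smallest of the alternatives was -0.8. DESeq2 called both genes lower.

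General endothelial genes were alike in most libraries of both sets. Pecam1 reached 54.2, 61.8, 90.0, 43.3 and 114 CPM against 48.2, 59.9, 437, 104 and 38.1 (-0.35, SE 0.59), and Cldn5, of the tight junctions, 35.7, 60.8, 155, 55.2 and 113 against 67.5, 102, 775, 172 and 76.8 (-1.01, SE 0.65). Leaving aside ATRXfl_WT 1, Pecam1 spanned the same range in both sets. Summed over the list, the endothelial level was 435 to 995 CPM in the high libraries and 522, 722, 3763, 1382 and 595 in the low ones. The 17 mural and fibroblast genes also had negative slopes, with 2 at an unadjusted p under 0.05. Without ATRXfl_WT 1, 10 of 17 were negative and none was at an unadjusted p under 0.05, and Acta2 turned to 0.47. Their median difference of -0.21 was 0.25 without that library.

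Genes of the unfolded protein and integrated stress responses, which a shortage of oxygen or nutrients can engage, were mostly higher in the high set, 19 of 20 with a positive difference and a median of 0.74. At an unadjusted p under 0.05, 9 were higher and none lower, and none of the 20 separated the sets. Hspa5, the main chaperone of the endoplasmic reticulum, lay between 830 and 2860 CPM against 500 and 932 (1.10, SE 0.36), Manf between 136 and 362 against 70.5 and 155 (1.07, SE 0.32), and Ddit3 between 36.1 and 133 against 27.9 and 54.6 (0.75, SE 0.38). Slc7a11, the cystine transporter, was the exception at -0.76 (SE 0.63). The list's median kept its sign in 31 of 31 alternatives, from 0.47 to 1.0, and was 0.61 without p53_G34R 1. Against the 2 remaining low libraries 16 of 20 were positive (0.67).

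The mesenchymal and perinecrotic glioma genes had a similar median, 0.76, with 20 of 22 positive, but only 1 at an unadjusted p under 0.05, Fosl2. They were uneven within the high set: the mean log2(CPM + 1) of the list was 7.13 in p53_G34R 1 and 6.68 in ATRXfl_G34R 4, but 5.09, 4.79 and 5.53 in the other high libraries, within the range of the low ones (3.53 to 6.12). Cd44, a receptor of hyaluronan, lay between 45.4 and 293 CPM against 6.84 and 126, and Vim between 545 and 2035 against 155 and 1351. The median was 0.36 without p53_G34R 1, -0.06 with study group as a covariate, and 1.63, with 22 of 22 positive, against the 2 remaining low libraries. Immediate early genes, which also respond to handling of tissue, split (11 of 18 positive, median 0.22), and 3 of 18 were positive (-0.22) with the cortex-rich libraries left out before ranking. Without ATRXfl_WT 1, 15 of 18 were positive (0.73), and against the 2 remaining low libraries also 15 of 18 (0.54). Ier3 had the largest difference of the immediate early list between the full sets (1.54, SE 0.52).

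**Figure D4:**
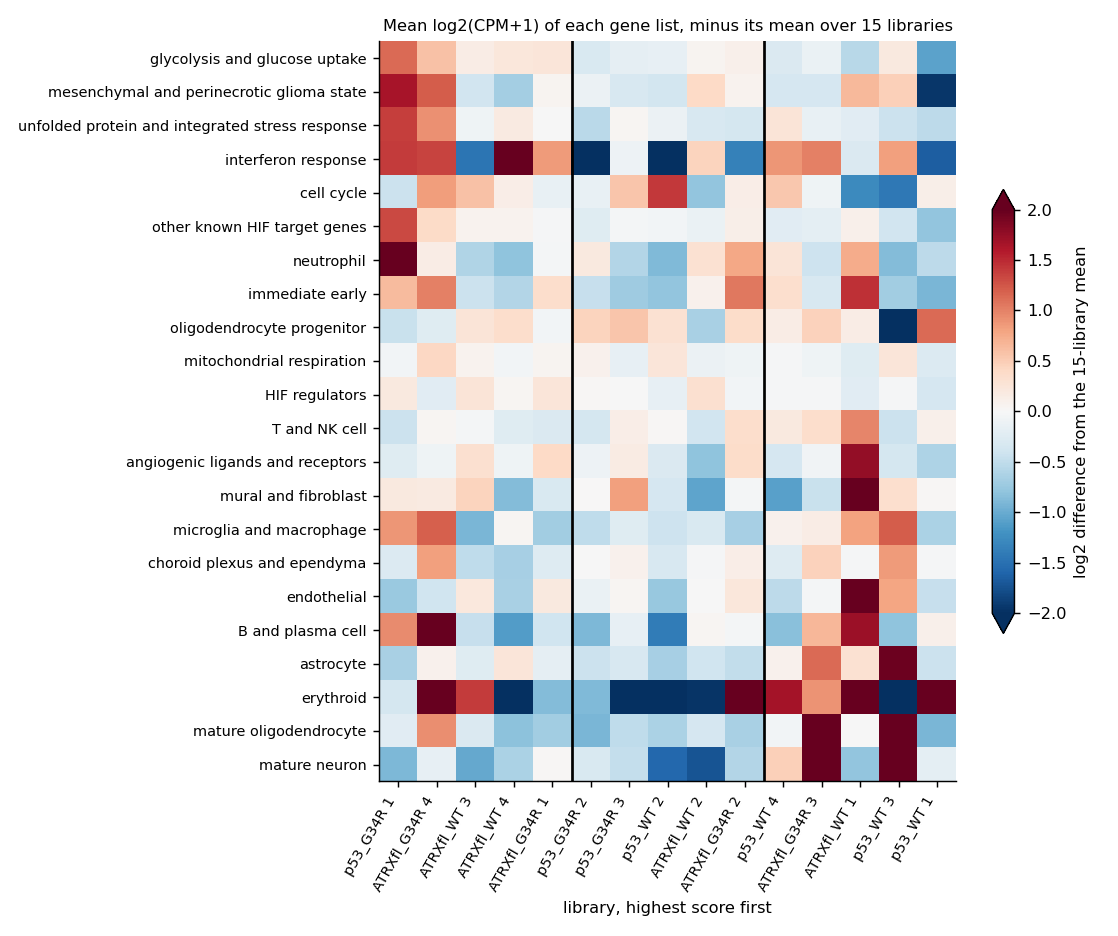
Mean log2(CPM + 1) of each of the 22 gene lists (rows) in each library (columns, highest score first), minus the list's mean over the 15 libraries, with vertical lines at the borders of the high, middle and low sets and colours limited to between -2 and 2. The glycolysis row is clearly red only in p53_G34R 1 (7.62 before subtraction) and ATRXfl_G34R 4 (7.07). It is faint in the other high libraries (6.64 to 6.74), as in the low library p53_WT 3 (6.69). The mesenchymal and stress rows are red mainly in p53_G34R 1 and ATRXfl_G34R 4, and the neuron row is deepest red in p53_WT 3 and ATRXfl_G34R 3.

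Cell cycle genes were all positive in both comparisons, 26 of 26, with a median difference of 0.63 and a median slope of 0.58, and 20 had a slope at an unadjusted p under 0.05, none at an adjusted one. Without the 2 cortex-rich libraries 11 had such a slope at an unadjusted limma p under 0.05 (median 0.47), as did 888 of all 15168 genes. With ATRXfl_WT 1 left out as well, 2 of 26 had (median 0.34), a share near that of all genes, 1108 of 15094. The low set was uneven here: the summed level was 842 CPM in ATRXfl_WT 1 and 737 in p53_WT 3, against 2132 to 3280 in the other low and 1574 to 3798 in the high libraries. Mki67, the proliferation marker, reached 144, 489, 570, 370 and 265 CPM against 460, 354, 87.4, 88.0 and 437 (0.57, SE 0.58). The library with the highest score had the lowest Mki67 of the high set. Against the 2 remaining low libraries 5 of 26 were positive and the median was -0.15. Genes of mitochondrial respiration had a small positive median, 0.16, with 23 of 25 positive and none at an unadjusted p under 0.05.

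Markers of mature cortex moved with the sets. All 19 neuron genes were lower in the high set, with a median of -2.21, and 14 of 16 oligodendrocyte genes, with -1.05. Summed neuron reads were 193 to 452 CPM in the high libraries and 461, 1554, 244, 13260 and 357 in the low ones, so p53_WT 3 and ATRXfl_G34R 3 stood apart and the other 3 did not. With these 2 libraries left out before ranking the neuron median was 0.06 and the oligodendrocyte median 0.28. Nrgn, a postsynaptic gene, lay between 4.72 and 34.6 CPM against 39.3 and 1655, separated in every library (-2.83, SE 0.96). Astrocyte genes were lower in 15 of 17 cases (median -0.88), and in 9 of 16 (-0.11) with the cortex-rich libraries left out before ranking. Oligodendrocyte progenitor genes, which these tumours express strongly, had a median of 0.21, which was -0.43 without p53_WT 3, and their summed level was 10011 to 18823 CPM in the high and 1967 to 28746 in the low set. Sox10, a defining gene of that lineage, was at 82.7 CPM in p53_WT 3 and 998 to 1398 in the high set. The part of cortex content in the differences of HIF genes was measured only by leaving the cortex-rich libraries out.

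**Figure D5:**
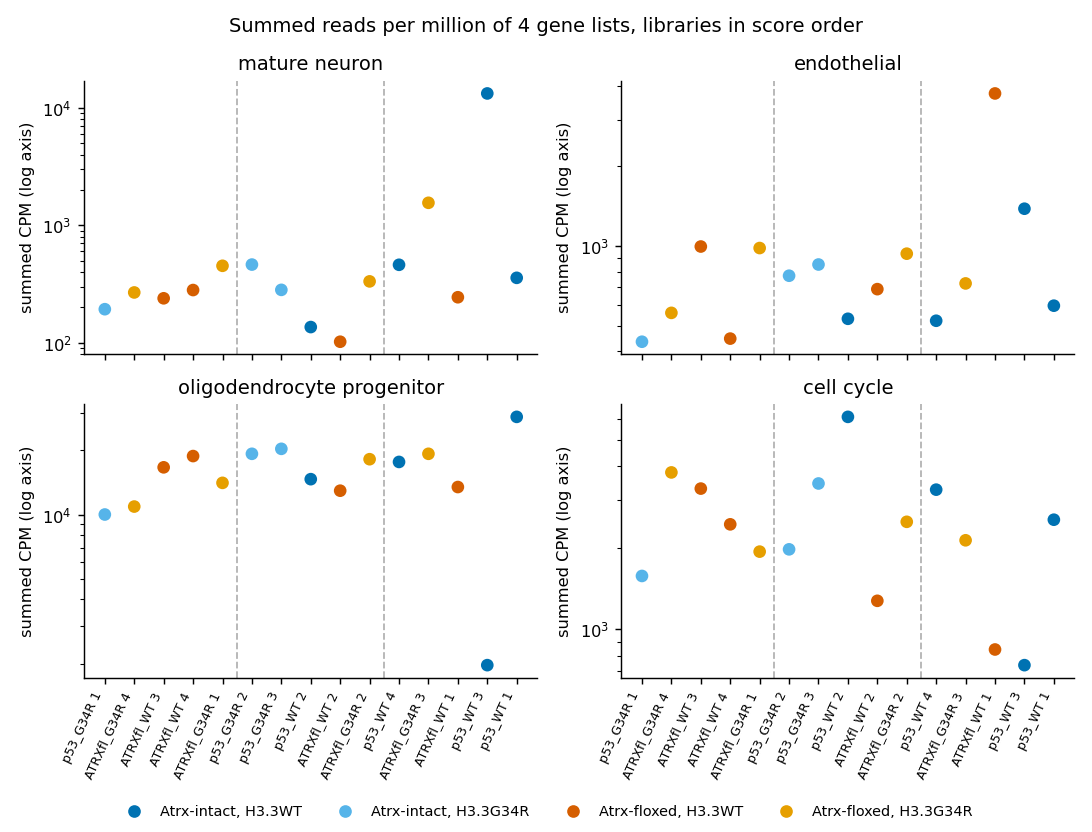
Summed CPM (log axes) of the mature neuron, endothelial, oligodendrocyte progenitor and cell cycle lists in each library, highest score first and coloured by study group, with dashed lines at the borders of the sets. p53_WT 3 holds 13260 CPM of neuron genes and the fewest oligodendrocyte progenitor reads, 1967, and ATRXfl_WT 1 the most endothelial reads, 3763.

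Blood and immune lists were uneven. Microglia and macrophage genes were mostly lower in the high set (5 of 20 positive, median -0.24), and neutrophil genes had 7 of 10 positive (0.33). The microglia median was 0.06 without p53_WT 3 and 0.28 with the cortex-rich libraries left out before ranking, and the neutrophil median was -0.10 without p53_G34R 1. Only 3 of 12 T and NK cell genes and 6 of 8 B and plasma cell genes passed the filter on low levels, with medians of -0.07 and -0.64, and for choroid plexus and ependyma 5 of 9 passed (-0.33). All 5 globin and other erythroid genes were lower (-1.0), with summed levels from 39.2 to 20521 CPM within the low set alone. Interferon response genes were all positive, 15 of 15 with a median of 0.74, but none at an unadjusted p under 0.05. That median was 0.34 without ATRXfl_WT 4, 0.35 without p53_WT 1, 0.08 with the score taken without Adm and 1.28 against the 2 remaining low libraries. The summed level ranged from 249 to 3918 CPM in the high libraries and from 226 to 1398 in the low ones.

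Outside the lists, the genes entirely higher in the high set with the smallest p included Arrdc3, an arrestin-domain gene, at 154, 74.9, 89.4, 77.3 and 80.2 CPM against 41.8, 48.6, 47.7, 42.7 and 45.7 (1.0, SE 0.20). Its low libraries were within a narrow band and its high ones well above it. Others were Muc2, a mucin gene (2.17, SE 0.47), Prss35 (2.18, SE 0.48), Sdk2, a neural adhesion gene (1.76, SE 0.38), and Spaca1 (1.47, SE 0.34). Prss35 reached 202 CPM in p53_G34R 1 and 39.4 to 46.8 in the other high libraries, against 5.52 to 22.1 in the low ones.

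Entirely lower was Abca9, of a family of lipid transporters, at 3.91, 4.25, 3.0, 2.23 and 1.31 CPM against 8.83, 7.69, 12.7, 12.2 and 12.4 (-1.61, SE 0.29). Its low libraries were alike whether or not they were rich in cortex or vessels. Car4, a carbonic anhydrase bound to the cell surface, reached 3.04, 1.58, 3.17, 5.20 and 3.96 CPM against 7.01, 7.32, 21.7, 33 and 12 (-1.79, SE 0.43), the opposite direction to Car9. Cped1, Shisa9, Malt1, Hmcn1, Vwa5b2, Dok7 and Trmt9b were also entirely lower, with differences from -1.78 to -0.87.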

How the data were processed

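RNA-seq libraries of 15 tumours were used, 22807315 to 35679129 reads in genes each. The authors worked on mm10 and used HTSeq, STAR 2.7 and DESeq2, per the submitters' processing notes, while annotation, strand use and settings are not given in these sources. The values deposited by the authors are a signal, read counts of a gene divided by 1 size factor per library, per the file headers and the values. Divided by a library's smallest nonzero value they came out whole (100% within a tolerance of 0.01), so whole reads were recovered and scaled to CPM. Gene symbols and positions are those of GENCODE vM21, and start windows those of RefSeq.

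The 5 high and 5 low libraries were compared with limma 3.58.1 (trend and robust) in R 4.3.3 on log2(CPM + 1), over genes with a mean of at least 1 CPM in the 15 libraries, without Adm, Vegfa and Ankrd37. A call was an adjusted p (Benjamini-Hochberg over all genes tested) under 0.05. The pseudocount of 1 CPM understates changes of low genes. The slope of each gene on the score was fitted over 15 libraries with study group as covariate. Alternatives were other scalings, pseudocounts and filters, edgeR 4.0.16, DESeq2 1.42.0, limma-voom, other scores and set sizes, a group covariate, and leaving out each library. For the sets, libraries that share a code were also summed. Leaving out the vessel-rich with the cortex-rich libraries, and the cortex-rich libraries from the slope, was chosen after seeing the data. The fits were tested on simulated data.

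The sets and the 22 gene lists were chosen with earlier results of these data known. Genes named are the 12 with the smallest p in each direction among those entirely higher or lower (without mitochondrial genes, pseudogenes or predicted genes), 5 of each list, 6 in each direction by slope, and Atrx, Trp53, Pdgfa, Snap25, Mobp and Xist. Some genes that this rule selects are not reported here. Car9, Slc2a1, Hif1a, Kdr, Cldn5, Pecam1, Mki67 and any other gene named were chosen after their values were seen.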

Additional observations from a re-analysis of the deposited data

Results flagged for a closer look

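In each set of 5 libraries, a gene's highest or lowest value was singled out where its gap to the nearest other library took up an unusually large part of the set's range. The 3 score genes were not examined in this way, since they chose the sets. This held for 27 of 292 sets of values. Chance alone gives about 1 in 20 for independent values. These genes share the same libraries, so no excess over chance can be read from the count. In the high set most of the values singled out came from p53_G34R 1, the library with the highest score. It stood apart, in CPM, for Egln3 (169), Arrdc3 (154), Ero1l (243), Prss35 (202), Pgm1 (248), Car9 (232), Tubb2b (890), Cxcl3 (19.0) and Mmp8 (7.41), in each case as the highest.

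ATRXfl_G34R 4 stood above the other high libraries for Mobp (142 CPM), Nkx2-2 (569), Gjb6 (3.81), Cd79b (3.16) and Aqp1 (6.84), and ATRXfl_WT 3 stood below them for Usp18 (7.01). In the low set, ATRXfl_WT 1 stood above the others for Vegfc (8.51 CPM), Kdr (396), Rgs5 (2178), Acta2 (157), Mmp9 (347) and Cxcl2 (6.21), and below them for Xist (0.816). p53_WT 3 stood above the other low libraries for Nrgn (1655 CPM) and below them for Sox10 (82.7) and Nkx2-2 (7.18), and p53_WT 1 stood below them for Fosl1 (1.34) and Ndufb8 (51.2).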

How the results depend on the processing

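In the comparison of the sets, 30 of 31 alternatives called no gene, as did the fit reported. DESeq2 called 34 genes higher and 103 lower. The count of genes called with a positive slope, 3 in the fit within groups, became 20 without the group covariate and ranged from 0 to 4 when each library was left out. The count called with a negative slope, 2 in the fit within groups, became 6 with edgeR and 0 without the 2 cortex-rich libraries and ATRXfl_WT 1 (chosen after seeing the data). It ranged from 0 to 6 when each library was left out. The cause of these changes was not tested. No paired analysis was possible because the labels give the groups no shared replicate numbers, and the sets were made from measured values. The medians of the glycolysis, HIF target and stress lists kept their sign in 31 of 31 alternatives (0.66 to 1.07, 0.20 to 0.79 and 0.47 to 1.0). Those of the immediate early, progenitor and neutrophil lists turned in 10, 9 and 4, those of the angiogenic, endothelial, mural, microglia, T and NK cell and HIF regulator lists in 3 each, that of the oligodendrocyte list in 2, and those of the mesenchymal, cell cycle, neuron and choroid lists in 1 each. Genes of a few CPM have coarse log2 differences.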
